A study of Homo sapiens with 12 samples.

Results

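The genes of cellular iron control described here are the 10 whose symbols in the deposited count table are FTH1, FTL, TFRC, SLC11A2, SLC40A1, ACO1, IREB2, FBXL5, NCOA4 and HMOX1, out of 20212 genes in the table. They were chosen by name. Of the 10, 9 had at least 10 reads summed over the footprint libraries and at least 10 over the total RNA libraries and were tested. The exception was SLC40A1, which had 1 footprint read in DMSO and 1 in rapamycin. The cells were PANC-1, an established human pancreatic carcinoma line, given the vehicle DMSO or 50 nM rapamycin, an inhibitor of the mTORC1 kinase complex, and collected after 60 min. With 3 cultures per treatment, and with ribosome footprints (RF, the mRNA fragments that ribosomes shield from nuclease) and total RNA sequenced from every culture, there were 12 libraries. The comparison asks whether rapamycin changed the translation of an mRNA relative to its amount, which is the translation efficiency (TE), footprints over total RNA.

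Cells set their iron stores and uptake largely after transcription. The iron regulatory proteins IRP1, which is the product of ACO1, and IRP2, the product of IREB2, bind a short hairpin called the iron-responsive element (IRE) when iron is scarce. Bound near the start of the ferritin mRNAs the proteins block translation, and bound behind the coding region of the transferrin receptor mRNA they protect it from decay. FBXL5 senses iron and directs IRP2 to degradation, NCOA4 carries ferritin to the lysosome so that its iron is released, and HMOX1 frees iron from haem.

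The hairpins are shown because they are what links these mRNAs to the iron regulatory proteins. The letters searched for, on the transcript strand only, were the loop CAGTGN with a C ahead of the 5 bases that precede it and with at least 4 of these 5 able to pair with the bases behind the loop (A with U, G with C or G with U). The loop is in capitals, each site spans 28 bases of the GRCh37 genome and is written 5′ to 3′ on the strand of the gene.
FTH1, 5′UTR, chr11:61735047-61735074, minus strand: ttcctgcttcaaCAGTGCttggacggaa
FTL, 5′UTR, chr19:49468592-49468619, plus strand: ctcttgcttcaaCAGTGTttggacggaa
SLC40A1, 5′UTR, chr2:190445388-190445415, minus strand: caacttcagctaCAGTGTtagctaagtt
TFRC, 3′UTR, chr3:195777851-195777878, minus strand: aattatcggaagCAGTGCcttccataat
TFRC, 3′UTR, chr3:195777447-195777474, minus strand: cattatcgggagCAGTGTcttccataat
TFRC, 3′UTR, chr3:195777382-195777409, minus strand: ctgtatcggagaCAGTGAtctccatatg
TFRC, 3′UTR, chr3:195777335-195777362, minus strand: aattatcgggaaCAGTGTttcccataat
SLC11A2, 3′UTR, chr12:51382053-51382080, minus strand: agccatcagagcCAGTGTgtttctatgg

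In these 5 genes, FTH1, FTL, SLC40A1 and TFRC had all 5 bases paired at every site, and the SLC11A2 site had 4. By this search TFRC held 4 sites and every other gene shown held 1. Hairpins with a different loop were not searched for, so the number of hairpins can be larger. A match with 4 paired bases also lay in the 3′UTR of ACO1 and of IREB2, and FBXL5, NCOA4 and HMOX1 had none in a UTR of the canonical transcript searched. Of 19894 genes searched, 0.0905% had a match with 5 paired bases in the 5′UTR and 0.613% had one in the 3′UTR, against 0.508% and 4.22% with at least 4. A match of letters is a description of the sequence and does not show binding in these cells.

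No member passed an adjusted p of 0.05 in edgeR's quasi-likelihood test (Benjamini-Hochberg over 13329 genes) for TE, RF or total RNA, and no other gene did (0% called in each). At an unadjusted p below 0.05, 3 of the 9 tested members passed for TE, where 12.6% of all genes tested did. These were SLC11A2, whose TE was lower in rapamycin, and FBXL5 and HMOX1, whose TE was higher. For RF, 1 member of the 9 (HMOX1) passed unadjusted against 3.68% of genes, and for total RNA 0 of the 9 passed against 5.82%. The log2 TE of the 3 rapamycin cultures lay apart from that of the 3 DMSO cultures in 1 of the 9 members, SLC11A2, and the same was true of 11% of all genes tested. In RF level SLC11A2 was again the 1 member of the 9 without overlap, against 9.45% of genes. DESeq2's Wald test called SLC11A2 and FBXL5 for TE among 9.4% of all genes, and it called no member for RF or total RNA, where it called 0.0375% and 0.218% of genes. Both of these TE tests put 1 estimate of the spread over both library types, although the biological coefficient of variation was 54.9% in the RF libraries, 5.31% in total RNA and 24.4% in the joint fit. With limma voom, which weighted the 2 library types separately, 0 members were called for TE and the smallest adjusted p of a member was 0.724.

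**Figure D1:**
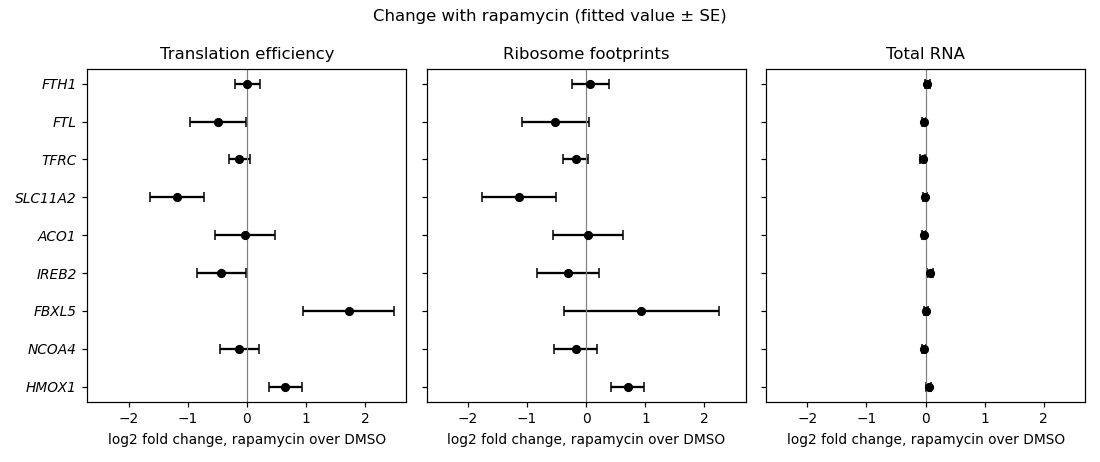
Log2 fold change of rapamycin over DMSO (horizontal axis) in the 9 tested iron genes for TE, RF and total RNA, with points at the edgeR value and bars of 1 SE. SLC11A2 lay lowest and FBXL5 highest for TE, while every total RNA value lay between -0.05 and 0.07.

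FTH1 (ENSG00000167996, chr11:61727190-61735106, minus strand) encodes the ferritin heavy chain, the subunit that oxidises iron for storage. Its RF level was 89.2, 103 and 131 CPM (counts scaled by TMM to a common library size) in DMSO replicates 1, 2 and 3 and 124, 92.0 and 126 CPM in rapamycin replicates 1, 2 and 3. Its total RNA level was 1038, 935 and 952 CPM in DMSO and 967, 1012 and 1005 CPM in rapamycin. The treatments overlapped in both measures, and FTH1 was among the most abundant mRNAs of the line. The log2 TE averaged -3.16 in DMSO (SD 0.33, n = 3) and -3.11 in rapamycin (SD 0.27, n = 3). The fitted TE change was 0.01 ± 0.21 on the log2 scale (SE, adjusted p = 0.99, edgeR).

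FTL (ENSG00000087086, chr19:49468566-49470136, plus strand) encodes the ferritin light chain, which helps the iron core form. The RF libraries held 11, 46 and 91 FTL reads in DMSO and 26, 58 and 4 in rapamycin, or 33.8, 57.8 and 61.8 CPM against 21.6, 70.2 and 13.3 CPM. Rapamycin replicate 2 was the highest of the 6 libraries and rapamycin replicate 3 the lowest, so that the rapamycin cultures enclosed the DMSO range. Total RNA differed by less than its spread, with 1227 ± 18.9 CPM in the DMSO and 1203 ± 40.9 CPM in the rapamycin libraries (SD, n = 3 each). The fitted log2 TE change was -0.49 ± 0.47 (SE, adjusted p = 0.707, edgeR), and it ranged from -1.49 to -0.10 when 1 culture was left out, the lowest value being that without rapamycin replicate 2 and the highest that without rapamycin replicate 1.

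The balance of the ferritin subunits was read within each library. In total RNA, there were 0.860, 0.752 and 0.773 FTH1 reads per FTL read in DMSO and 0.803, 0.871 and 0.808 in rapamycin. In the footprints, the ratio was 2.64, 1.78 and 2.12 in DMSO, and 5.77, 1.31 and 9.50 in rapamycin. FTL reads thus outnumbered FTH1 reads in each of the 6 total RNA libraries, and FTH1 reads outnumbered FTL reads in each of the 6 RF libraries. A difference between treatments beyond the spread was found for neither ratio (difference of the mean log2 ratio 0.81 in RF and 0.06 in total RNA, two-sided exact permutation p = 0.4 in each, n = 3 per treatment, where the smallest possible p is 0.1). The RF difference was 1.55 without rapamycin replicate 2 and 0.37 without rapamycin replicate 3.

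The ferritin counts carry a limit of their own, since uniquely aligned reads were counted and the genome holds many processed copies of these genes. The annotation names 25 FTH1 and 16 FTL pseudogenes. Of the 520 windows of 30 bases in the FTH1 coding sequence 469, or 90.2%, occurred elsewhere in GRCh37, as did 58.9% of those of FTL and 31.5% of those of NCOA4, a share that was at most 0.629% in every other member. FTH1 exons also overlap those of BEST1 on the other strand, and whether the counting used strand is not stated in the sources used here.

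**Figure D2:**
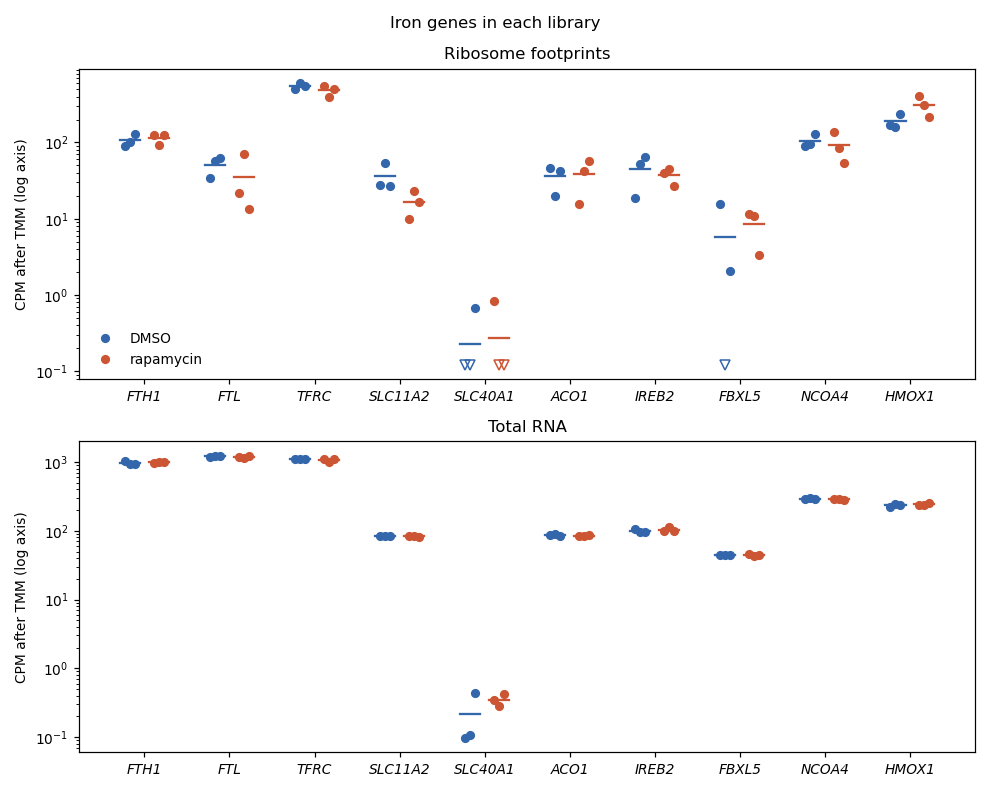
Level of the 10 iron genes in every RF (upper panel) and total RNA (lower panel) library, in CPM after TMM scaling on log axes, with points for cultures, bars for means and open triangles for libraries with 0 reads, drawn at the foot of the panel. The total RNA points of each tested gene nearly coincide, whereas the RF points of FTL, IREB2 and FBXL5 scatter widely within a treatment.

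TFRC (ENSG00000072274, chr3:195739382-195809024, minus strand) encodes the transferrin receptor, which brings iron-loaded transferrin into the cell. It had the most footprints of the 10 genes, with 162, 485 and 820 reads in DMSO and 674, 331 and 153 in rapamycin. This came to 498, 609 and 557 CPM in DMSO and to 559, 401 and 509 CPM in rapamycin. Rapamycin replicate 2 was the lowest library, and the other rapamycin libraries lay within the DMSO range. Total RNA was 1108 ± 16 CPM in the DMSO and 1067 ± 51.9 CPM in the rapamycin libraries (SD, n = 3 each). The log2 change was -0.13 ± 0.18 for TE (SE, adjusted p = 0.807, edgeR), the smallest error among the members, and -0.05 ± 0.039 for total RNA (SE, adjusted p = 0.766, edgeR).

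SLC11A2 (ENSG00000110911, chr12:51373184-51422349, minus strand) encodes DMT1, the transporter that moves ferrous iron across the endosomal and apical membranes. The RF libraries held 9, 43 and 39 SLC11A2 reads in DMSO and 12, 19 and 5 in rapamycin. The level was 27.7, 54.0 and 26.5 CPM in DMSO and 9.95, 23.0 and 16.6 CPM in rapamycin. Every rapamycin library lay below every DMSO library, although only by 26.5 against 23.0 CPM at the nearest pair. Total RNA overlapped in CPM, with 83.4, 83.2 and 83.8 in DMSO and 84.3, 83.0 and 81.8 in rapamycin. In the deposited FPKM (fragments scaled to transcript length and library size) it did not, with 24.9, 24.2 and 25.2 in DMSO and 23.5, 23.4 and 23.5 in rapamycin (two-sided exact permutation p = 0.1, the smallest possible), a log2 change of -0.08 ± 0.03 on the log2(FPKM + 1) scale (SE, adjusted p = 0.899, limma-trend). The number of all genes without overlap in FPKM was not counted, and in total RNA CPM 14.8% of genes tested lacked it.

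The log2 TE of SLC11A2 was -1.47, -0.56 and -1.54 in DMSO and -2.77, -1.71 and -2.10 in rapamycin, again without overlap (two-sided exact permutation p = 0.1, the smallest that 3 cultures against 3 can give). The fitted log2 TE change was -1.18 ± 0.46 (SE, unadjusted p = 0.0222, adjusted p = 0.322, edgeR), a TE 0.44 times that of DMSO. It stayed between -1.62 and -0.77 with each culture left out (-0.77 without DMSO replicate 2 and -0.78 without rapamycin replicate 1), and was -0.73 when DMSO cultures 1 and 2 were omitted together. The call depended on the tool, with an adjusted p of 0.00224 in DESeq2's Wald test and 0.724 in limma voom. For RF alone, the change was -1.14 ± 0.63 (SE, adjusted p = 1, edgeR).

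Some annotated SLC11A2 transcripts hold the hairpin motif and others do not. The canonical transcript SLC11A2-201 holds it and was the most abundant, at 8.89 ± 0.503 FPKM (SD, n = 3) in DMSO and 8.84 ± 0.497 FPKM (SD, n = 3) in rapamycin. Of the FPKM of the 25 SLC11A2 transcripts matched to the annotation, those with the motif made up 46.5, 47.4 and 48.5% in DMSO and 52.7, 54.4 and 52.6% in rapamycin. The share was thus higher in each rapamycin culture than in any DMSO culture (two-sided exact permutation p = 0.1, the smallest possible). It was examined after the transcript values had been seen, and SLC11A2 was the 1 member without overlap among 5 whose transcripts, in part, hold the motif. SLC40A1, with the motif in 3 of 7 matched transcripts, is not among the 5, since none of its transcripts reached the minimum FPKM. How many of all genes lack such overlap was not counted. The share was 76.8% in DMSO and 81% in rapamycin for FTH1, 94.2 and 95.1% for TFRC, 3.96 and 4.25% for ACO1 and 65.1 and 69.7% for IREB2, each with overlap between the cultures (exact permutation p from 0.3 to 1). The matched transcripts accounted for 85.6 to 88.6% of the FPKM of the gene. No transcript was called by itself, and the smallest adjusted p was 0.94 (limma-trend), for ENST00000551215, a transcript without the motif, at 0.909 ± 0.38 FPKM in DMSO and 0.231 ± 0.204 in rapamycin (SD, n = 3).

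**Figure D3:**
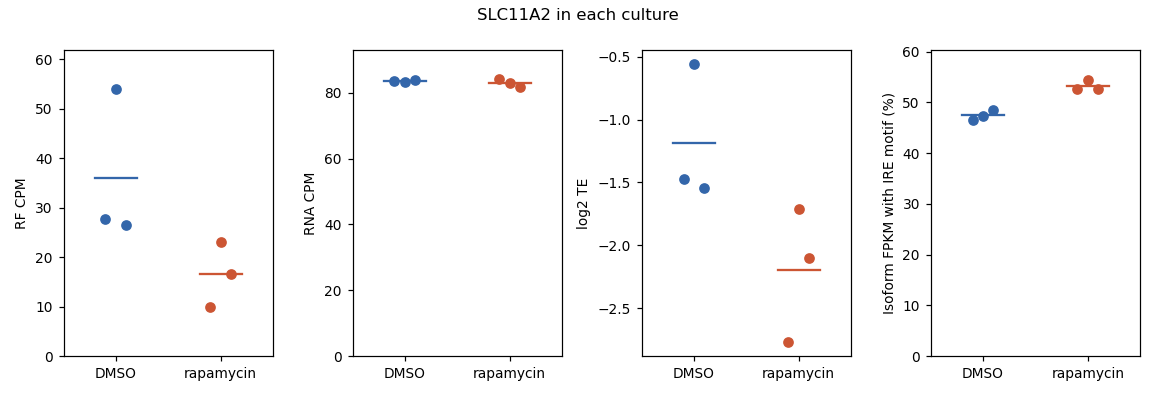
SLC11A2 in the 3 DMSO and 3 rapamycin cultures, from left to right RF level (CPM), total RNA level (CPM), log2 TE and the percent of its matched transcript FPKM in transcripts with the IRE motif, with points for cultures and bars for means. RF level and TE lay lower in each rapamycin culture and the motif share higher (47.5 against 53.2% on average), while total RNA overlapped in CPM. The motif share of FTH1, TFRC, ACO1 and IREB2, not drawn, overlapped.

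SLC40A1 (ENSG00000138449, chr2:190425316-190448484, minus strand) encodes ferroportin, the known exporter of iron from cells. It was barely detected in PANC-1. Its total RNA counts were 9, 10 and 39 in DMSO and 31, 22 and 36 in rapamycin, or at most 0.444 CPM. The DMSO replicates 1 and 2 that gave the low counts are the libraries in which 16840 and 16858 genes had a read, against 19751 to 19847 in the other 4, and the part of this in the SLC40A1 counts was not tested. With 1 footprint read in each treatment, a change in its translation was not detectable at this depth.

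ACO1 (ENSG00000122729, chr9:32384601-32454767, plus strand), which encodes cytosolic aconitase and IRP1 in a single protein, had an RF level of 46.1, 20.1 and 42.8 CPM in DMSO and 15.8, 42.4 and 56.6 CPM in rapamycin. Its lowest and highest libraries were both rapamycin cultures. The log2 TE change was -0.03 ± 0.51 (SE, adjusted p = 0.986, edgeR), and its sign turned with the culture left out, from -0.44 to 0.46. IREB2 (ENSG00000136381, chr15:78729773-78793795, plus strand), which encodes IRP2, had 18.5, 51.5 and 65.2 CPM in DMSO and 39.8, 44.8 and 26.6 CPM in rapamycin. The DMSO cultures enclosed the rapamycin range, and the log2 TE change was -0.43 ± 0.41 (SE, adjusted p = 0.714, edgeR). It was -0.71 without DMSO replicate 1 and -0.09 without DMSO replicate 3.

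FBXL5 (ENSG00000118564, chr4:15606004-15683302, minus strand) encodes the ligase subunit that marks IRP2 for degradation. It had few footprints, 5, 0 and 3 reads in DMSO and 14, 9 and 1 in rapamycin. The 0 in DMSO replicate 2 allows up to 3.77 CPM at 3 counts, and this limit covers counting error only. The RF level was 15.4, 0 and 2.04 CPM in DMSO and 11.6, 10.9 and 3.33 CPM in rapamycin, so the highest library was a DMSO one and the groups overlapped.

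The fitted TE of FBXL5 was higher in rapamycin by 1.72 ± 0.77 on the log2 scale (SE, unadjusted p = 0.0425, adjusted p = 0.378, edgeR), the largest value among the members. The log2 TE per culture averaged -2.95 in DMSO (SD 1.47, n = 3) and -2.13 in rapamycin (SD 0.73, n = 3). These groups overlapped (two-sided exact permutation p = 0.6), and their means lay closer together than the fitted value. The summed reads were 8 in DMSO and 24 in rapamycin, whereas the mean RF level was 5.81 CPM in DMSO and 8.61 CPM in rapamycin, and the RF fit by itself gave 0.93 ± 1.31 (SE, adjusted p = 1, edgeR), or 0.34 to 2.82 with 1 culture left out (without DMSO replicates 2 and 1, respectively). The TE value ranged from 1.16 (without DMSO replicate 3) to 2.93 (without DMSO replicate 1) with 1 culture left out and was 3.13 without the cultures of the smallest RF libraries, DMSO replicate 1 and rapamycin replicate 3. The adjusted p was 0.0389 in DESeq2's Wald test and 0.724 in limma voom. Total RNA stood at 44.6 ± 0.251 CPM in the DMSO and 44.8 ± 1.29 CPM in the rapamycin libraries (SD, n = 3 each).

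NCOA4 (ENSG00000138293 in the count table) encodes the receptor that delivers ferritin to the lysosome. Its RF level was 89.2, 94.3 and 131 CPM in DMSO and 138, 83.5 and 53.2 CPM in rapamycin. The rapamycin cultures held both the highest and the lowest value. The log2 TE change was -0.13 ± 0.33 (SE, adjusted p = 0.907, edgeR). The annotation used here lists NCOA4 under another identifier, whose transcripts are at 0 in the FPKM table, so no transcript of NCOA4 was tested.

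HMOX1 (ENSG00000100292, chr22:35776354-35790207, plus strand) encodes the inducible haem oxygenase. The RF libraries held 55, 128 and 354 HMOX1 reads in DMSO and 486, 254 and 65 in rapamycin, which gave 169, 161 and 240 CPM against 403, 307 and 216 CPM. Rapamycin replicates 1 and 2 exceeded every DMSO library, and rapamycin replicate 3 lay below DMSO replicate 3. Total RNA was 235 ± 13.3 CPM in the DMSO and 244 ± 10.9 CPM in the rapamycin libraries (SD, n = 3 each).

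The log2 TE of HMOX1 was -0.36, -0.60 and 0.04 in DMSO and 0.76, 0.39 and -0.23 in rapamycin (two-sided exact permutation p = 0.2). The fitted change was 0.65 ± 0.28 for TE (SE, unadjusted p = 0.0357, adjusted p = 0.358, edgeR) and 0.70 ± 0.28 for RF (SE, unadjusted p = 0.0213, adjusted p = 1, edgeR). The TE value stayed between 0.40 (without rapamycin replicate 1) and 0.87 with each culture left out, and the adjusted p ranged from 0.114 to 1 over the other settings.

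Across the 9 tested members, the log2 change in total RNA lay from -0.05 to 0.07, with errors of 0.031 to 0.052 (SE, adjusted p of 0.766 to 0.968, edgeR). The groups overlapped in total RNA CPM for all 9 tested members, where 14.8% of all genes tested did not overlap. The 67 transcripts of the members that could be tested gave 0 calls by limma-trend, against 3 of 88071 transcripts in all (0.00341%), and 4 of the 67 were below an unadjusted p of 0.05 against 5% of all.

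The order of the members in untreated translation was read in the 3 DMSO cultures as a description. Footprints per kilobase of coding sequence were highest for TFRC, 243 ± 24.4 CPM per kb (SD, n = 3), then HMOX1 at 220 ± 50.7 and FTH1 at 196 ± 38.9, and these neighbours lay within their spread. FTL followed at 97.4 ± 28.8, NCOA4 at 56.9 ± 12.4, SLC11A2 at 21.4 ± 9.25, IREB2 at 15.6 ± 8.32, ACO1 at 13.6 ± 5.31 and FBXL5 at 2.80 ± 4.03 CPM per kb. Neighbouring values from SLC11A2 to ACO1 also lay within their spread. Total RNA per kilobase of the canonical transcript put the ferritins first, with FTL at 1408 ± 21.7 CPM per kb and FTH1 at 810 ± 45.8, above 99.8% and 99.5% of the tested genes with a length. TFRC stood at 221 ± 3.18, HMOX1 at 151 ± 8.57 and NCOA4 at 83.7 ± 1.71 CPM per kb.

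The log2 TE per length, with footprints per coding kilobase over total RNA per transcript kilobase, was -3.83 for FTL, -2.20 for FBXL5 and -2.03 for FTH1, against a median of 0.66 over 12969 genes. The SD over the 3 cultures was 0.43, 1.47 and 0.33, and the FBXL5 value rests on 5, 0 and 3 reads, so its place between the ferritins lay within its spread. In percent of genes with a lower TE per length, this was 0.0925 for FTL, 2.07 for FBXL5 and 2.74 for FTH1. The other members lay between -0.54 (NCOA4) and 0.54 (HMOX1), or from 20.9 to 46.9% on the same scale. Thus all 9 lay below the median gene by this measure. Without scaling to length, HMOX1 lay above it, with a log2 TE of -0.31 against a median of -0.53, and exceeded 56% of genes. The lengths are those of the canonical transcript, which can be a minor one. In DMSO that of ACO1 averaged 0.715 FPKM, or 3.96% of the ACO1 transcript FPKM. For FBXL5 the canonical transcript averaged 2.36 FPKM, against 6.18 for FBXL5-202. The values with lengths of other transcripts were not examined.

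The place of the ferritins depended on the length used. Per kilobase of coding windows that occur nowhere else in the genome, of which FTH1 has 51, the FTH1 footprints came to 2114 ± 419 CPM per kb (SD, n = 3), 10.8 times the value per coding kilobase. Its log2 TE per length then became 1.40, above 64.4% of genes. FTL moved 2.57 times, to a log2 TE per length of -2.47 that exceeded 1.21% of genes, and NCOA4 moved to 0.03 and 33.4%. FTL lay near the bottom on either length and FTH1 did not. Total RNA and the other genes of the distribution were not corrected in this way. The footprint counts cover whole exons, so any reads in the UTRs are credited to the coding windows. How many there were cannot be read from the counts. Among the 6004 genes with at least 100 RF reads, the corresponding shares were 70.3% for FTH1, 0.75% for FTL and 33.5% for NCOA4.

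**Figure D4:**
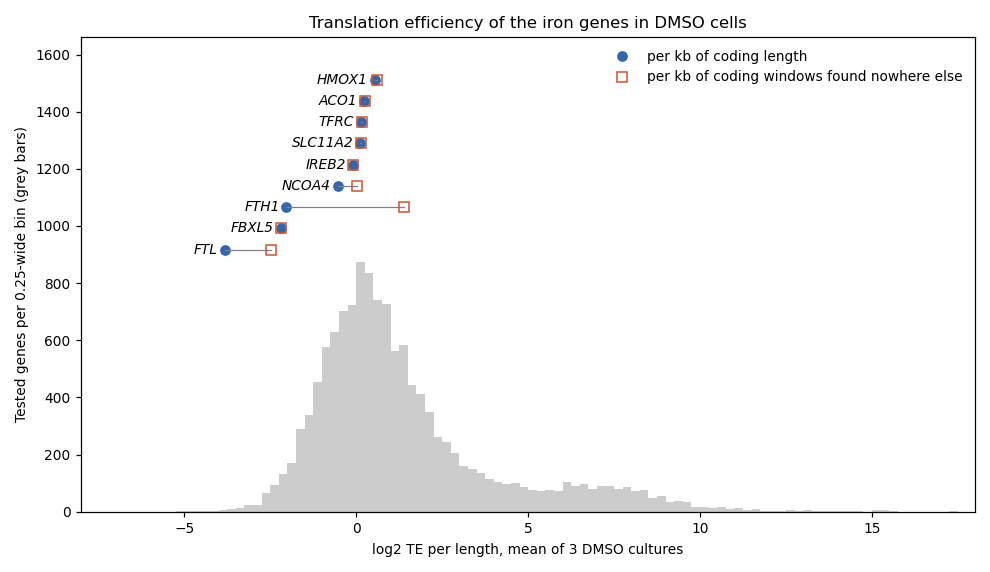
Log2 TE per length in DMSO cells (horizontal axis, mean of 3 cultures) for 9 iron genes over the distribution of all tested genes with a length (grey bars, number of genes), with filled circles for footprints per kb of coding length and open squares for footprints per kb of coding windows found nowhere else. FTH1 moves from -2.03 to 1.40 and FTL from -3.83 to -2.47, while the squares of the genes without repeated windows stay on their circles.

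Across the 6 RF libraries, the footprint patterns most like that of FTH1, among 6130 other genes with at least 100 RF reads, were those of FUCA2 and SDF2 (Pearson r of log2 CPM 0.982 for each). For FTL it was C2orf40 (r = 0.978), and for TFRC they were SQLE (r = 0.982) and NFRKB (r = 0.969). With 6 libraries and this many genes, 25, 41 and 36 genes exceeded an r of 0.9 with FTH1, FTL and TFRC, and the genes share library and depth.

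Of the 78 other iron genes in a list by function, 71 were tested. For TE, 35 were higher and 36 lower in rapamycin with a median log2 change of -0.04, beside -0.06 over all genes tested. None was called by edgeR, and 6 of the 71 passed unadjusted, 3 higher and 3 lower, or 8.45% against 12.6% of all genes. Those with the smallest p were NUBP2, a scaffold protein of cytosolic iron-sulfur cluster assembly (1.36 ± 0.49, adjusted p = 0.285, edgeR), ABCB10, a mitochondrial transporter tied to haem synthesis (-1.74 ± 0.62, adjusted p = 0.285), and NFS1, the cysteine desulfurase that supplies sulfur to the clusters (1.08 ± 0.40, adjusted p = 0.303), each as a log2 TE change with its SE. The RF reads of NUBP2 were 6, 3 and 24 in DMSO and 31, 20 and 21 in rapamycin, and its log2 TE was higher in each rapamycin culture than in any DMSO culture. NUBP2 was picked by its small TE p in these data, so this separation is no separate result. In log2 TE, 11% of all genes tested lay apart in either direction.

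By function, the 24 tested genes of iron-sulfur cluster assembly split into 16 higher and 8 lower TE (median 0.13), and the 16 of haem synthesis, transport and degradation into 3 higher and 13 lower (median -0.31). All genes tested split into 6168 higher and 7161 lower. Whether the split of any list differs from this was not tested. FLVCR2, a transporter of the haem exporter family, had the next smallest p among the haem genes (-0.97 ± 0.49, adjusted p = 0.432, edgeR). The 17 genes of transport and uptake split into 8 higher and 9 lower, and the smallest p values there were those of STEAP3, the endosomal ferrireductase (-0.48 ± 0.38, adjusted p = 0.64, edgeR), and TFR2, the second transferrin receptor (-1.27 ± 1.06, adjusted p = 0.662). Among 4 other mRNAs described with an IRE, 1 was higher and 3 were lower, and CDC42BPA had a log2 TE change of -0.53 ± 0.42 (SE, adjusted p = 0.64, edgeR). None of these lists held a gene called for TE by edgeR.

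HMOX1 shares its regulators NRF2 and BACH1 with a set of antioxidant genes. The list used here held such genes together with those of NRF2, BACH1 and KEAP1 themselves. Of its 10 genes, all tested for TE, 7 were higher and 3 lower in rapamycin (median 0.27), and none passed even unadjusted. NQO1, a quinone reductase, had 71, 156 and 239 RF reads in DMSO and 366, 189 and 70 in rapamycin, with a log2 TE change of 0.43 ± 0.21 (SE, adjusted p = 0.418, edgeR) and a log2 TE higher in each rapamycin culture than in any DMSO culture. Like NUBP2, it was picked by its TE p. GCLC, the catalytic subunit of the enzyme that starts glutathione synthesis, had a log2 TE change of 0.53 ± 0.35 (SE, adjusted p = 0.566, edgeR). DESeq2's Wald test called 6 genes of the wider list for TE, namely FECH, ABCB10, ABCG2 and LYRM4 lower and NFS1 and NDOR1 higher, which is 6 of 71 where it called 9.4% of all genes. For total RNA, TF and CYBRD1 were among the 5.51% of all genes (687 of 12461) called by edgeR when DMSO replicate 3 was left out, which left only the DMSO libraries with the fewest genes detected.

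RF libraries held 278835 to 1574723 counted reads and total RNA libraries 78081241 to 94293744, so that RF counts limit every TE value here. The 8 markers of duct and epithelial carcinoma cells all exceeded 1 CPM in total RNA, as did VIM. The markers of acinar, islet, blood, stromal and liver cells each stayed at or below 1 CPM on average, and their summed level was at most 0.556, 0.284, 0.785, 0.847 and 0.517 CPM in any library. The endothelial marker PECAM1 was looked up but not found under that symbol in the counts. Bulk libraries cannot tell fewer cells that express a gene from less RNA per cell.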

How the data were processed

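PANC-1 RF and total RNA libraries were grouped by treatment from their labels. The authors deposited raw exon counts, made with HISAT2 and featureCounts from reads with a single alignment to GRCh37 and limited to protein-coding genes, in a table that also holds their own TE ratios, fold changes and p-values, which were not used. FPKM at gene and isoform level, deposited for total RNA only, were made with Cufflinks 2.2.1 (Cuffnorm), and normalized counts that were not used here. The strand setting of the counting and the other tool versions are not given in the sources used here.

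Counts were scaled by TMM within RF and within total RNA. Genes with at least 10 counts in each library type were tested in R 4.3.3 with edgeR 4.0.16 (quasi-likelihood, robust), TE being the term by which the treatment effect differs between RF and total RNA, in place of the RiboDiff model of the study. The Benjamini-Hochberg adjustment ran over every gene tested. The SE is the log2 fold change over the square root of F. A prior count of 2 was added for the log2 TE of a culture. FPKM of isoforms averaging at least 0.1 were tested by limma-trend (limma 3.58.1) as log2(FPKM + 1). Exact permutation tests used scipy 1.17.1, and DESeq2 1.42.0 was an alternative. The tests were tested on simulated data. There the joint TE test, which shares a single spread between RF and total RNA, made more false calls than its threshold allows, so its p-values were too small. The RF spread was simulated below that of the data, so how far the p-values of the data are too small was not measured. Motifs, loci and repeated coding windows came from GRCh37 with a GENCODE annotation that differs from that of the authors. The count table's identifiers matched for every member except NCOA4, which was matched by symbol.

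The members, the wider list of iron genes and the markers were chosen with earlier results of these data known. All members are named. Of each part of the wider list, the 2 genes with the smallest TE p are named with any gene called in a fit. For FTH1, FTL and TFRC, the 2 genes with the most similar footprint pattern are named. A few single-gene results under these rules are not reported here. Libraries of a group differed beyond sampling noise (chi-square per degree of freedom from 3.63 to 30.2), so none was a duplicate. The labels call the cultures biological replicates without further detail. Alternatives were other size factors, other count minimums, DESeq2, voom by library type, blocks, FPKM and cultures left out. Those that omit pairs of cultures, the unique-window length and the minimum of 100 RF reads were chosen after seeing the data.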

Additional observations from a re-analysis of the deposited data

How the results depend on the processing

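DESeq2's Wald test for TE called 2 members (SLC11A2 at a log2 change of -1.18 and FBXL5 at 1.73) and 6 genes of the wider list, where edgeR called 0 of each. No other alternative moved a member across an adjusted p of 0.05, and this includes 0 calls for TE, RF, total RNA and isoforms with the replicate number as a block. Same-numbered cultures did not deviate together (r from -0.118 to -0.061 in RF and from -0.216 to -0.107 in total RNA), so the numbers were not taken as a pairing. The block turned ACO1 TE to 0.11 and gave FBXL5 TE a log2 change of 1 in place of 1.72.

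Of 143 TE values of members under alternatives, 127 kept their direction, as did 96 of 107 RF and 125 of 134 total RNA values. The values that turned follow, and the cause was not tested. FTH1 TE (0.01) became -0.05 with DESeq2, -0.07 with TMM over all libraries, -0.01 with voom, -0.27 without DMSO cultures 1 and 2 and -0.19 without the cultures of the smallest RF libraries, and ACO1 TE became 0.02 with DESeq2. Without the smallest RF libraries, RF changes became -0.12 for FTH1 and -0.14 for ACO1. For total RNA, ACO1 became 0.01 without DMSO cultures 1 and 2, SLC11A2 0.00 with at least 50 counts, and FBXL5 -0.01 with no count filter, -0.00 without DMSO cultures 1 and 2 and -0.07 in each of the 3 FPKM fits.

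With 1 culture left out, TE changes ranged from -0.13 to 0.19 for FTH1, -0.44 to 0.46 for ACO1 and -0.56 to 0.09 for NCOA4. RF changes ranged from -0.04 to 0.22 for FTH1, -0.32 to 0.44 for ACO1, -0.62 to 0.03 for IREB2 and -0.60 to 0.07 for NCOA4, and total RNA changes from -0.02 to 0.00 for SLC11A2 and -0.01 to 0.03 for FBXL5. Over all genes, edgeR's 0 calls became 396 for TE and 687 for total RNA without DMSO replicate 3, and 20 for RF with no count filter, while DESeq2's Wald test called 1253, 29 and 5 for TE, total RNA and RF. FBXL5 had too few RF reads for a value with at least 50 counts. RF depth limits several members: SLC40A1 had no read in 4 RF libraries, and the lowest RF library held 0 reads of FBXL5, 4 of FTL and 5 of SLC11A2.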
